A study of Homo sapiens with 24 samples.

Results

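A2780 cells held at 1% oxygen for 6 days were compared with A2780 cells held at 1% oxygen for 48 hr, so that both groups were hypoxic and differed in how long they had been. A2780 is a long-established line of human epithelial ovarian cancer. The comparison rests on 4 of the 24 samples of the series, assigned to their groups by their labels: total RNA libraries 7 and 8 (hypoxia, 48 hr) and total RNA libraries 11 and 12 (hypoxia, 6 days). The series holds 12 total RNA samples and 12 precursor miRNA samples. All cells grew in RPMI 1640 with 10 to 15% fetal bovine serum and 5% CO2. The same interval at normal oxygen, libraries 5 and 6 (normoxia, 48 hr) and libraries 9 and 10 (normoxia, 6 days), served as the background for time in culture and shares no library with the hypoxia comparison. Nothing in the labels ties the 2 libraries of a group to separate cultures, and the p-values therefore cover only the spread between these libraries, technical or not. The labels also leave unsaid how densely cells were seeded or whether medium was renewed over 6 days.

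Cells read oxygen through prolyl hydroxylases, the EGLN enzymes, which mark the alpha subunits of hypoxia-inducible factor (HIF) for destruction when oxygen is plentiful. When oxygen falls, HIF accumulates and switches on genes for glucose uptake, pH balance, vessel growth and collagen cross-linking. Longer stress also engages ATF4, a transcription factor made when amino acids run short or proteins misfold, and FOXO factors, which act when growth factor signalling is low. In ovarian tumours, which often outgrow their blood supply, such states are studied as features of cells far from vessels.

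RPKM values (read counts scaled to transcript length and library size) of 11933 genes that reached 1 RPKM in 2 or more of the 12 libraries were tested. The 4 hypoxia libraries held between 25.2 and 35.3 M reads (M, the prefix mega), inferred from the steps of the low precursor values. Libraries of a pair agreed closely across genes, with a median absolute log2 difference of 0.09 at 48 hr and 0.11 at 6 days. Of 14 markers of ovarian and other epithelium, 3 were detected (KRT8, KRT18 and EPCAM), and PAX8, CDH1, KRT19 and MUC16 were under 0.1 RPKM in all 4 libraries. None of 8 leukocyte markers and 1 of 6 endothelial markers reached a mean of 1 RPKM in either group. Among 11 fibroblast markers 6 were detected, and their summed level was 233.1 and 232.7 RPKM at 48 hr and 99.3 and 95.8 RPKM at 6 days, with TAGLN, at 166 and 169 RPKM at 48 hr and 45.7 and 46.0 RPKM at 6 days, the largest part. In total RNA from a whole culture, fewer cells of a kind and less RNA per cell cannot be told apart.

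Much of the transcriptome differed between 6 days and 48 hr of hypoxia, and 59.4% of genes tested were called over the same interval in normoxia. At 6 days 3631 genes were higher than at 48 hr (30.4% of those tested) and 3868 were lower (32.4%), 62.8% in either direction, at an adjusted p below 0.05 (limma on log2(RPKM + 0.5), Benjamini-Hochberg). Of these, 803 rose and 837 fell by at least 2-fold. The 2 hypoxia groups did not overlap in 84.6% of genes tested. Counts of genes that rose or fell within a list below stand against the shares of 30.4 and 32.4%. A gene below 1 RPKM at 48 hr can have passed the filter through the 2 hypoxia 6-day libraries alone, which favours a rise. The median log2 change of all genes tested was -0.009. Rows of short non-coding RNA and the MTRNR2L family took 70.2 and 68.3% of summed RPKM at 48 hr and 78.1 and 77.4% at 6 days. When RPKM was rescaled without those rows, the median change became 0.14 and the higher share of calls went from 48.4 to 60.6%. Changes below are on the deposited scale, so a log2 change within about 0.14 of 0 has no fixed sign. A fold change is on the log2(RPKM + 0.5) scale and understates the change of genes near or below 0.5 RPKM. The few exceptions named within a gene list, and SREBF1, SREBF2, DCN, LUM, THY1, COL3A1 and SNHG3, were picked after their values were seen.

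Outside the classes of short non-coding RNA described further on (snoRNA, scaRNA, small nuclear RNA, miRNA and SNAR rows), the 3 genes that rose most encode 2 secreted proteins and a receptor, and each was below 0.5 RPKM at 48 hr. STC1, which encodes the secreted glycoprotein stanniocalcin 1, stood at 0.310 and 0.219 RPKM at 48 hr and at 5.73 and 5.78 RPKM at 6 days, a change of 8.19-fold (log2 3.04, SE 0.12, adjusted p = 8.19e-08). NGFR, the low-affinity receptor for nerve growth factor, went from 0.477 and 0.364 to 7.09 and 6.92 RPKM (8.17-fold, adjusted p = 7.40e-08). GDF15, a stress-induced hormone that acts on appetite, went from 0.430 and 0.448 to 7.46 and 6.11 RPKM (7.72-fold). Genes ranked here were required to have no overlap between the groups. DUSP15, FLJ35024, C4orf34, RNF150, KLHL24, PCDH1, BEX2, FAM129A, SEPP1, TCP11L2 and DDIT3 made up the rest of the 15 with MYO6. Their changes ran from 5.74-fold for DDIT3 to 7.31-fold for DUSP15.

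MYO6, an unconventional myosin, entered that group through a single library. It stood at 3.77 and 3.66 RPKM at 48 hr and at 7.33 and 130.5 RPKM at 6 days, and the second of the 6-day values came from library 12. Without library 12 its log2 change was 0.89 instead of 2.92, and without library 11 it was 4.96. With the spread taken from the 4 hypoxia libraries alone it was not called (adjusted p = 0.0567).

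With the same short RNA classes left out, the 15 genes that fell most included genes of protein folding, ribosome building and RNA processing. HSPA8, the constitutive HSP70 chaperone, went from 922 and 892 RPKM at 48 hr to 154 and 139 RPKM at 6 days (6.17-fold lower, adjusted p = 4.43e-07). BOP1, needed to process the RNA of the large ribosomal subunit, went from 31.2 and 32.1 to 4.51 and 4.99 RPKM (6.14-fold lower, adjusted p = 1.50e-07). RRM2, the regulated subunit of ribonucleotide reductase, went from 88.4 and 85.1 to 17.4 and 18.6 RPKM (4.72-fold lower). The same part of the ranking held ATAD3B, a mitochondrial membrane ATPase, SDF2L1 of the endoplasmic reticulum, POLR2L, a subunit shared by the RNA polymerases, HNRNPAB, GRWD1, THOC4, LRRC45 and TELO2, at 4.43 to 5.60-fold lower. These 15 kept small transcripts of RNA polymerase III outside those classes, the vault RNAs VTRNA1-1 and VTRNA1-2, the related VTRNA2-1, and BCYRN1. Among the VTRNA rows VTRNA1-1 had the widest spread, at 889 and 1023 RPKM at 48 hr and 334 and 134 RPKM at 6 days. BCYRN1, a brain-enriched short cytoplasmic RNA with many related genomic copies, went from 5.25 and 5.93 to 1.26 and 0.416 RPKM, and reads shared with those copies make it uncertain.

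**Figure D1:**
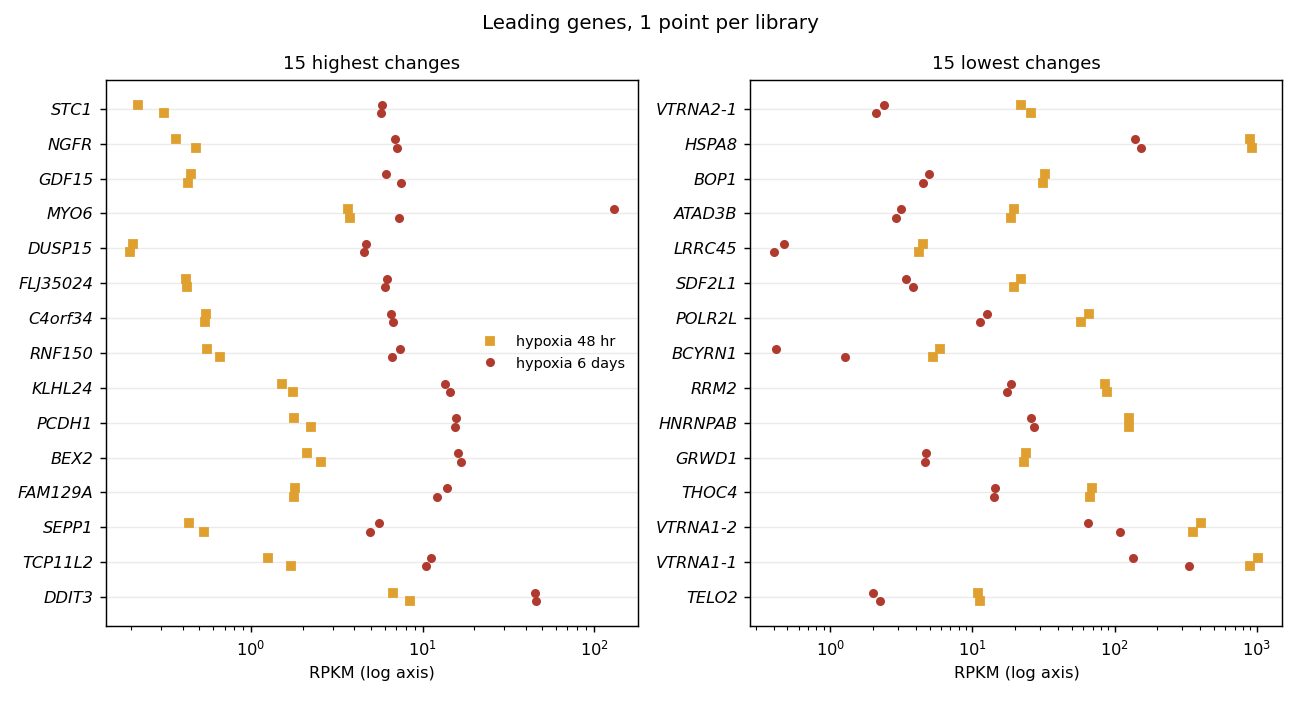
RPKM on a log axis in the 2 libraries at 48 hr (squares) and the 2 at 6 days (circles) for the 15 genes with the highest and the 15 with the lowest change in hypoxia, snoRNA, scaRNA, small nuclear RNA, miRNA and SNAR rows left out. Genes were required to have no overlap between the groups, and MYO6 has its 6-day points at 7.33 and 130.5 RPKM.

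Most HIF targets were higher at 6 days of hypoxia than at 48 hr. Of 49 tested HIF targets outside glycolysis, 36 rose and 1 fell (JMJD6, not called without library 7, 8 or 11), against 30.4 and 32.4% of all genes, with a median log2 change of 0.79. Over the same interval in normoxia 25 of the 49 rose and 7 fell, with a median of 0.31. NDRG1, a stress-responsive gene long used as a hypoxia marker, went from 0.493 and 0.487 RPKM at 48 hr to 4.30 and 4.45 RPKM at 6 days (4.93-fold, adjusted p = 2.45e-07). LOX, the oxidase that cross-links collagen, went from 1.82 and 1.40 to 10.5 and 9.70 RPKM (5.04-fold, adjusted p = 2.58e-07). PPP1R3C, which brings a phosphatase to glycogen, went from 9.61 and 8.26 to 36.9 and 33.9 RPKM (3.81-fold). In each of these genes both 6-day libraries lay above both 48-hr libraries, and 84.6% of all genes tested had no overlap. MXI1, an antagonist of MYC, went from 7.20 and 6.24 to 29.8 and 27.5 RPKM. CA9, the cell-surface carbonic anhydrase that exports acid, went from 4.48 and 3.13 to 7.75 and 8.57 RPKM (2.03-fold, adjusted p = 1.12e-04). Smaller rises were measured for ADM, encoding adrenomedullin (1.90-fold), VEGFA, the main vessel growth factor (1.73-fold), PDK1, which keeps pyruvate out of mitochondria (1.59-fold), and BNIP3, a mitophagy receptor (1.51-fold, 146 and 133 to 225 and 197 RPKM).

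The bases just upstream of these genes show how dense the HIF core motif can be. The core was searched as ACGTG or GCGTG on both strands in the 250 bases before the start of each gene, in RefSeq promoters of GRCh38.p14, and its letters lie inside the E-box CACGTG. It was present in 35 of 40 HIF-target promoters found in the table (87.5%), in 43.1% of all 27305 promoters and in 59.6% of those of genes tested. Genes that rose held it in 57.9% and genes that fell in 61.2%. The median GC content was 68.8% in the HIF-target promoters and 65.2% in those of genes tested, and its part in the share was not tested. LOX at chr5:122078260-122078509 and PPP1R3C at chr10:91633072-91633321, both on the minus strand, are the named genes of the list whose promoters are shown. Each holds 4 matches over both strands, shown in capitals and read 5′ to 3′ toward the gene.
LOX: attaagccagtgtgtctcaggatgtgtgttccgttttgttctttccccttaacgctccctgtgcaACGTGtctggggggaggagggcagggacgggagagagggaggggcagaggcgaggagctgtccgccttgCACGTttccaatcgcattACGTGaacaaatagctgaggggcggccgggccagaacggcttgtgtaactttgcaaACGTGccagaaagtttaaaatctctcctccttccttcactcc
PPP1R3C: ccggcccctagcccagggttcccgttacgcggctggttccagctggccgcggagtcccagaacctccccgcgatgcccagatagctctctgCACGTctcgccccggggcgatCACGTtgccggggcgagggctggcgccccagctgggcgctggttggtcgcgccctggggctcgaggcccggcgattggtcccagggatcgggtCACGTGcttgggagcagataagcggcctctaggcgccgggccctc
In PPP1R3C the matches nearest the gene form 1 E-box read on both strands. A match describes the letters of the window and not a bound site.

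The HIF machinery itself was measured through 12 tested genes, of which 5 rose (3 without library 8) and 1 fell. HIF1A, the first alpha subunit, stood at 13.3 and 15.5 RPKM at 48 hr and 16.6 and 19.8 RPKM at 6 days, and its change was not called (log2 0.32, 95% interval -0.094 to 0.74, adjusted p = 0.157). It was called when the spread was taken from the 4 hypoxia libraries alone (adjusted p = 0.0388). EPAS1, the other main alpha subunit, and EGLN3 were below the filter, EPAS1 at 0.244 and 0.197 RPKM at 48 hr and 0.595 and 0.639 RPKM at 6 days. SIAH1 and SIAH2, ubiquitin ligases that act on the hydroxylases, rose by 1.81 and 1.44-fold, and EGLN2 fell 1.82-fold.

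Glycolysis genes were divided. Of 28 tested genes 7 rose and 9 fell, close to the shares of all genes, with a median log2 change of -0.14 that became 0.02 after the rescaling. SLC2A3, a high-affinity glucose transporter, went from 23.5 and 20.1 to 57.9 and 55.1 RPKM (2.56-fold, adjusted p = 8.64e-07), and ENO2, an enolase isoform, from 50.8 and 46.0 to 95.4 and 102 RPKM (2.02-fold). GPI, which makes fructose 6-phosphate, went the other way, from 34.3 and 35.0 to 15.9 and 16.8 RPKM (2.09-fold lower). SLC2A1, the widely expressed glucose transporter, stood at 21.5 and 19.99 RPKM at 48 hr and 18.2 and 19.1 RPKM at 6 days (log2 -0.15, 95% interval -0.37 to 0.072), and its sign turned under 2 other scalings. SLC16A3, the lactate exporter, fell 1.43-fold. Of 20 tested glycogen genes 9 rose, led by PPP1R3C, and 3 fell.

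Secreted factors formed the group with the third highest median among lists of 12 or more tested genes, at a log2 change of 1.14. Of 17 tested members 14 rose and 1 fell (TGFB1). In normoxia 10 of the 17 rose and 1 fell, with a median of 0.69. The change was higher in hypoxia for 3 and lower for 2, with a median difference of 0.06. NPPB, the precursor of B-type natriuretic peptide, went from 2.42 and 1.58 RPKM at 48 hr to 13.7 and 11.1 RPKM at 6 days (5.21-fold, adjusted p = 1.10e-06). It was at 0.0703 and 0 RPKM at 48 hr and 0 in both libraries at 6 days in normoxia. NPR3, the receptor that clears natriuretic peptides, went from 0.296 and 0.426 to 3.79 and 4.07 RPKM (5.15-fold). FGF21, a fasting hormone, went from 0.777 and 0.767 to 5.89 and 5.53 RPKM (4.88-fold). The groups did not overlap in any of these 3 genes, as in 84.6% of all genes tested.

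**Figure D2:**
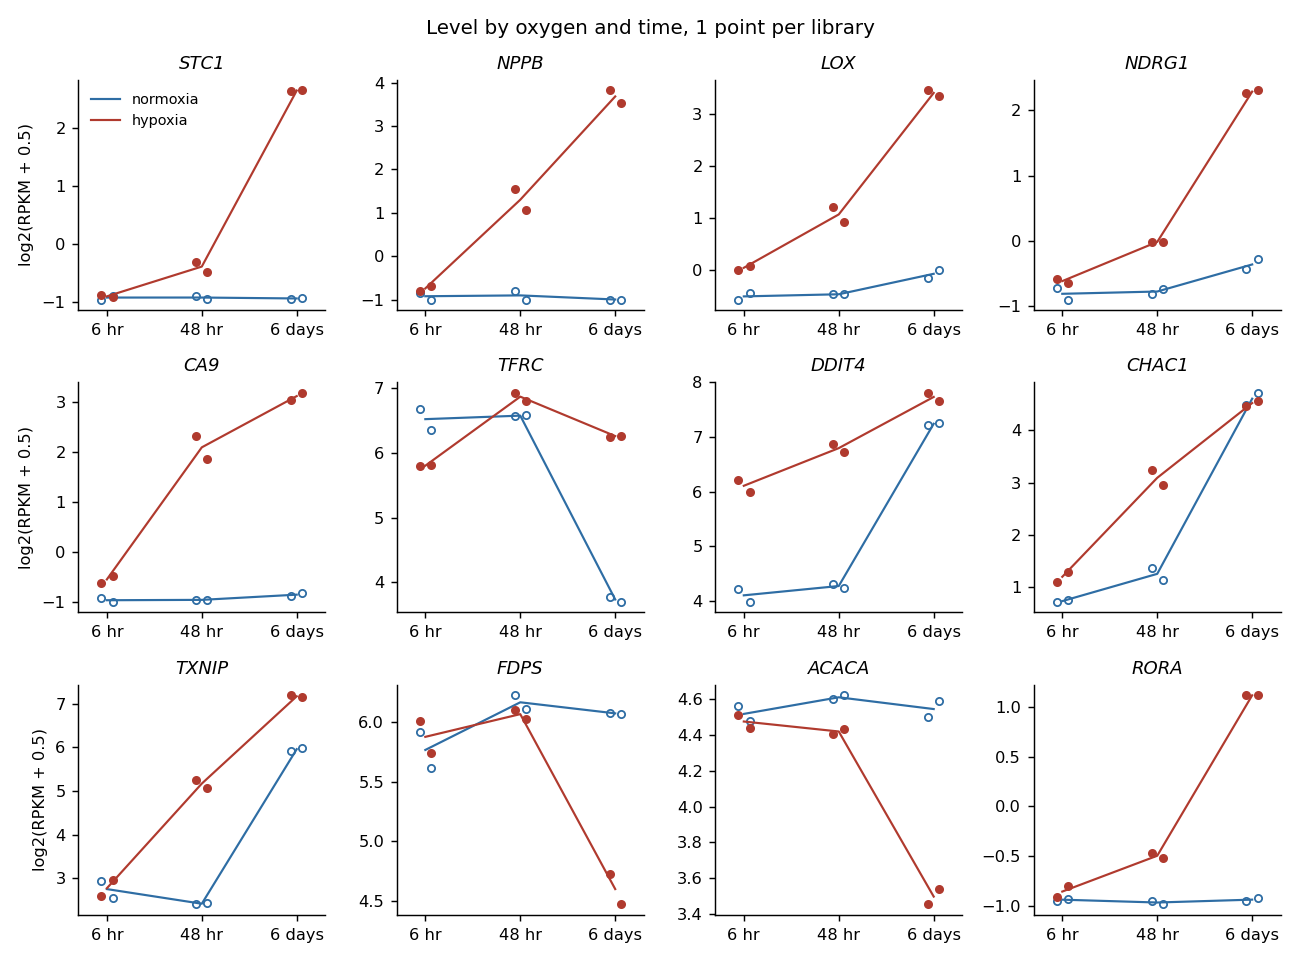
log2(RPKM + 0.5) of 12 genes at 6 hr, 48 hr and 6 days in normoxia (open, blue) and hypoxia (filled, red), with 1 point per library, lines through group means and an axis range set for each gene. STC1, NPPB and RORA leave the normoxia level in hypoxia alone, TFRC is lower in normoxia than in hypoxia at 6 days, and FDPS and ACACA are lower at 6 days in hypoxia.

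Genes of the ATF4 response rose almost as a block. Of 36 tested members 34 rose and 2 fell (SLC7A5 and SLC1A5, amino acid transporters), with a median log2 change of 1.25. DDIT3, which encodes CHOP, a transcription factor of unresolved stress, went from 8.44 and 6.69 RPKM at 48 hr to 45.9 and 45.2 RPKM at 6 days (5.74-fold, adjusted p = 9.43e-08). ASNS, asparagine synthetase, went from 11.8 and 10.9 to 44.1 and 49.9 RPKM (3.997-fold, adjusted p = 1.38e-05). CHAC1, which degrades glutathione, went from 8.91 and 7.21 to 21.7 and 23.2 RPKM (2.70-fold). Both groups were far apart in each gene. ATF3, another stress factor, rose 3.31-fold, SESN2, a sensor that restrains mTORC1, 2.62-fold, and SLC7A11, the cystine importer, 2.82-fold. Enzymes that charge tRNA with amino acids, many of them also ATF4 targets, were split, with 10 of 20 higher and 6 lower. AARS, for alanine, went from 60.6 and 58.8 to 119 and 118 RPKM, while HARS, for histidine, went from 31.3 and 29.5 to 10.1 and 9.69 RPKM (2.98-fold lower).

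The composite element bound by ATF4 with C/EBP partners, TGATGNAA on either strand, was present in 4 of 30 ATF4-list promoters in the table (13.3%), 3.19% of all promoters and 1.37% of those of genes tested. It was in 2.16% of promoters of genes that rose and 0.867% of those that fell. FGF21 (chr19:48755274-48755523, plus strand) and ASNS (chr7:97872409-97872658, minus strand) are the listed genes with the largest changes that hold it, each with 1 match in capitals, which in FGF21 reads on the opposite strand.
FGF21: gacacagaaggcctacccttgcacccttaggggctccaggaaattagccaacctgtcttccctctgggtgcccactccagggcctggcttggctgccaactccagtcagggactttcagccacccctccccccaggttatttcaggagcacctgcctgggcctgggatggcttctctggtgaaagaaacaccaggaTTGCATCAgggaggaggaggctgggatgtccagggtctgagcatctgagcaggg
ASNS: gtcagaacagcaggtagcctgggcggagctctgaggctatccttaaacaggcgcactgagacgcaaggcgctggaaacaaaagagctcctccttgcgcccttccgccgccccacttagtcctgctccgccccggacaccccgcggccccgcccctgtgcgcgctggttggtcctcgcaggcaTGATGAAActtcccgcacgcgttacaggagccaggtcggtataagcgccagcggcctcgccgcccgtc
The ASNS promoter is known for a nutrient-response element, and the match lies in this stretch of the RefSeq sequence.

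Genes that FOXO factors or falling growth factor signals are known to raise were higher. Of 23 written members 18 passed the filter, and each of these rose, with a median log2 change of 1.35, the highest of any list of 12 or more tested genes. TXNIP, which limits glucose uptake and binds thioredoxin, went from 37.9 and 33.4 RPKM at 48 hr to 146 and 141 RPKM at 6 days (4.001-fold, adjusted p = 1.14e-06). KLHL24, an adaptor of a ubiquitin ligase, went from 1.75 and 1.52 to 14.4 and 13.5 RPKM (6.78-fold, adjusted p = 5.28e-08). CCNG2, a cyclin that slows the cycle, went from 4.81 and 3.73 to 20.9 and 21.0 RPKM (4.52-fold). The groups were apart in all 3, as in 84.6% of all genes tested. TSC22D3, a glucocorticoid-responsive leucine zipper, rose 5.10-fold and YPEL5 4.18-fold. DDIT4, which shuts down mTORC1, was already at 116 and 105 RPKM at 48 hr and reached 224 and 201 RPKM (1.91-fold). The brakes and parts of mTORC1 signalling as a list were mixed, with 9 of 18 higher and 6 lower. INSR, the insulin receptor, rose 1.85-fold, and GRB10, which dampens it, 2.73-fold.

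Recycling genes moved the same way, though less far. In autophagy, the enclosure of cell material for digestion, 22 of 37 tested genes rose and 4 fell (ATG16L1, ATG4B, ATG4D and ATG2A), and the lower count was 2 without library 8 or 12. OPTN, a receptor for damaged mitochondria, went from 2.11 and 2.07 to 12 and 11.4 RPKM (4.70-fold, adjusted p = 7.40e-08). GABARAPL1, one of the proteins that coat the autophagosome, went from 7.73 and 7.58 to 30.4 and 27.4 RPKM (3.60-fold), and WIPI1, which acts at its formation, from 1.24 and 1.24 to 5.53 and 5.87 RPKM. MAP1LC3B, the LC3 coat protein used to follow autophagy, rose 2.64-fold. In the lysosome 25 of 47 tested genes rose and 7 fell. LAMP2, a membrane protein, rose 2.12-fold and NPC2, a cholesterol carrier, 2.11-fold, while the hydrolases GLA and CTSC fell 2.83 and 2.15-fold.

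Genes that build ribosomes fell together. Of 66 tested ribosome biogenesis genes 62 fell and 1 rose (TAF1D), with a median log2 change of -1.01. RRS1 went from 12.6 and 13.1 RPKM at 48 hr to 2.81 and 2.82 RPKM at 6 days (4.04-fold lower, adjusted p = 3.02e-07), NOP16 from 28.1 and 31.1 to 7.24 and 7.33 RPKM and RRP9 from 22.5 and 24.1 to 5.12 and 6.24 RPKM. The ribosomal proteins themselves did not share that fall, since 13 of 85 rose and 6 fell, both shares below those of all genes, with a median of 0.08. That count depends on scaling and on single libraries. The rescaled values gave 39 higher and 4 lower, and leaving out library 8 gave 2 higher and 3 lower, library 7 left 7 higher, library 11 left 4 higher and library 12 left 3 lower. Mitochondrial ribosomal proteins did fall, 59 of 76 with none higher, such as MRPL12 from 45.6 and 44.3 to 14.2 and 13.6 RPKM (3.15-fold lower). Of 56 translation initiation factors 29 fell and 11 rose. EIF4A1, the RNA helicase of the initiation complex, went from 252 and 247 to 84.4 and 91.0 RPKM and EIF4G1, its scaffold, from 88.5 and 84.8 to 32.9 and 31.9 RPKM. MYC, a driver of these genes, went from 35.3 and 33.0 to 17.2 and 17.5 RPKM (1.94-fold lower, adjusted p = 1.30e-05), while its relative MYCL1 rose, from 1.15 and 0.860 to 4.44 and 4.52 RPKM.

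DNA synthesis genes fell almost without exception. Of 50 tested replication genes 47 fell and none rose, with a median log2 change of -1.05. FEN1, which trims Okazaki fragments, went from 27.5 and 27.9 RPKM at 48 hr to 6.61 and 6.46 RPKM at 6 days (4.01-fold lower, adjusted p = 1.75e-07). UHRF1, which copies DNA methylation, went from 5.50 and 6.34 to 0.993 and 1.09 RPKM (4.15-fold lower), and GINS2, part of the replicative helicase, from 28.2 and 31.7 to 8.73 and 8.62 RPKM. Nucleotide synthesis followed, with 23 of 27 genes lower and 2 higher (MTHFD2 and SHMT2, mitochondrial folate enzymes), or 1 higher without library 8, 11 or 12. PFAS of purine synthesis went from 17.2 and 18.4 to 5.34 and 4.70 RPKM and CTPS, which makes CTP, from 13.6 and 13.8 to 4.78 and 4.82 RPKM. In recombination, Fanconi and mismatch repair 23 of 35 genes fell and 2 rose (PMS2 and RAD51AP1), or 1 without library 8 or 11, with FANCA among the lower ones at 2.98-fold.

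Of 55 tested mitotic genes 33 fell and 7 rose, with a median log2 change of -0.37. AURKB, a kinase that corrects chromosome attachment, went from 13.3 and 12.02 to 4.88 and 5.95 RPKM (2.23-fold lower) and CCNB1, the mitotic cyclin, from 46.2 and 47.2 to 22.6 and 24.4 RPKM (1.97-fold lower). MKI67, the proliferation marker Ki-67, stood at 14.9 and 18.2 RPKM at 48 hr and 9.59 and 13.6 RPKM at 6 days. Its adjusted p of 0.0433 was not below 0.05 without library 8 (0.234) or library 11 (0.321) or under 5 other settings, and the log2 change was -0.27 without library 11 against -0.51. Among cyclins, inhibitors and E2F genes 16 of 27 fell and 9 rose. CCNE1, the cyclin of entry into S phase, went from 14.0 and 13.7 to 3.69 and 3.55 RPKM, while CDKN1C, an inhibitor, went from 0.945 and 0.772 to 4.16 and 3.35 RPKM (3.12-fold). CDKN1A, the inhibitor p21, stood at 2.57 and 2.71 RPKM at 48 hr and 3.92 and 3.48 RPKM at 6 days, with an adjusted p of 0.0211 that was above 0.05 when library 7, 8 or 11 was left out (0.0937, 0.0584 and 0.122). Of 27 p53 targets 12 rose and 7 fell, against 30.4 and 32.4% of all genes, GADD45A by 2.77-fold upward and AEN by 2.90-fold downward.

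Most chaperone and proteasome genes fell. Of 23 tested heat-shock genes, mitochondrial members included, 20 fell and 1 rose (HSPA9, of the mitochondria, not called without library 8). HSP90AA1, the inducible HSP90, went from 353 and 341 RPKM at 48 hr to 118 and 118 RPKM at 6 days (2.94-fold lower), DNAJA1 from 126 and 120.0 to 37.3 and 37.4 RPKM and HSPE1, the mitochondrial co-chaperonin, from 87.3 and 86.0 to 27.1 and 27.4 RPKM. Of 36 proteasome genes 30 fell and 1 rose (PSMB9, an immunoproteasome subunit, not called without library 8 or 11), with PSMD1 from 54.0 and 50.8 to 22.5 and 19.6 RPKM. The endoplasmic reticulum was split, with 12 of 27 genes higher and 9 lower. HERPUD1 and SEL1L, which work in removing misfolded proteins from it, rose 2.44 and 2.40-fold. SDF2L1 and CRELD2, which help fold proteins inside it, fell 5.15 and 4.38-fold. Of 36 splicing factors 26 fell and 2 rose (CLK1 and CLK4, kinases of splicing factors). SRSF2 went from 70.4 and 68.1 to 15.6 and 14.9 RPKM and SRSF7 from 44.9 and 43.6 to 10.1 and 9.81 RPKM.

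**Figure D3:**
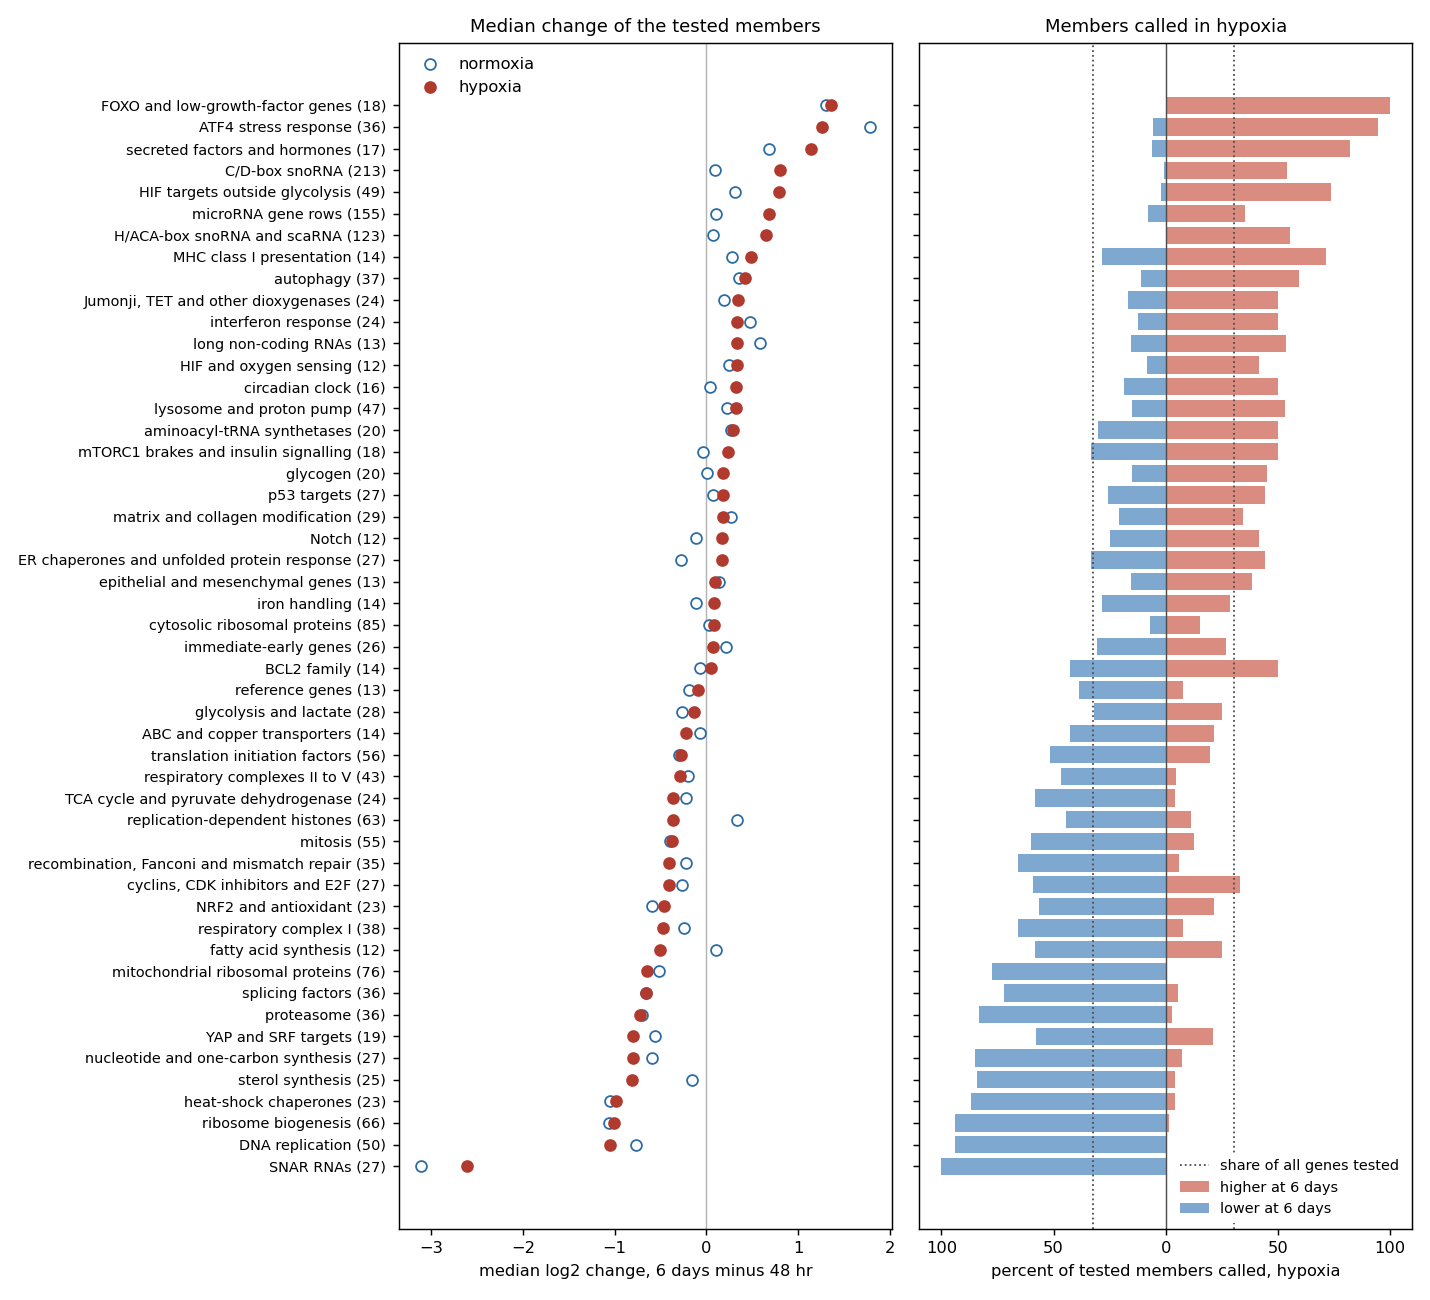
Left, median log2 change from 48 hr to 6 days of the tested members of each list with at least 12 (number in brackets), in hypoxia (filled) and normoxia (open). Right, percent of those members higher or lower in hypoxia, with dotted lines at the shares of all genes, 30.4 and 32.4%. FOXO and ATF4 genes stand at the top, replication, ribosome biogenesis and SNAR RNAs at the bottom, and sterol synthesis and histones have their normoxia median farthest to the right of the hypoxia one among the lists that fell.

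Lipid synthesis fell in hypoxia, and this was a group in which the interval at normal oxygen gave another picture. Of 25 tested sterol synthesis genes 21 fell and 1 rose (SC5DL, not called without library 8 or 12), with a median log2 change of -0.81. In normoxia 7 fell and 5 rose, with a median of -0.16. FDPS, which makes farnesyl diphosphate, went from 68.2 and 64.6 RPKM at 48 hr to 26.0 and 21.7 RPKM at 6 days in hypoxia and from 74.2 and 68.2 to 67.0 and 66.4 RPKM in normoxia. The difference between the 2 changes was -1.37 on the log2 scale (95% interval -1.78 to -0.96, adjusted p = 0.00265). ACAT2, at the head of the pathway, went from 28.4 and 30.1 to 8.08 and 8.26 RPKM in hypoxia and from 33.4 and 31.3 to 17.6 and 17.2 RPKM in normoxia (difference -0.90, adjusted p = 0.00466). In total 13 of the 25 had a lower change in hypoxia and none a higher one, against 5.31 and 5.38% of all genes (10.7% in either direction). Among them were the regulators SREBF1 and SREBF2, with differences of -0.95 and -0.99.

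Fatty acid synthesis showed the same split. Of 12 tested genes 7 fell and 3 rose (SCD, ACSS2 and ACSL3), and 7 had a lower change in hypoxia than in normoxia. FASN, the fatty acid synthase, went from 38.2 and 39.1 to 8.77 and 8.95 RPKM in hypoxia and from 40.6 and 37.0 to 15.7 and 17.2 RPKM in normoxia (difference -0.85, adjusted p = 0.00514). ACACA, which makes malonyl-CoA, went from 20.7 and 21.1 to 10.4 and 11.1 RPKM in hypoxia and from 23.7 and 24.1 to 22.2 and 23.6 RPKM in normoxia (difference -0.86, adjusted p = 0.00253). FADS2, a desaturase, had a difference of -1.14 (adjusted p = 0.00538). In FADS2 and ACACA the 2 hypoxia groups were far apart, while the normoxia change was not called.

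**Figure D4:**
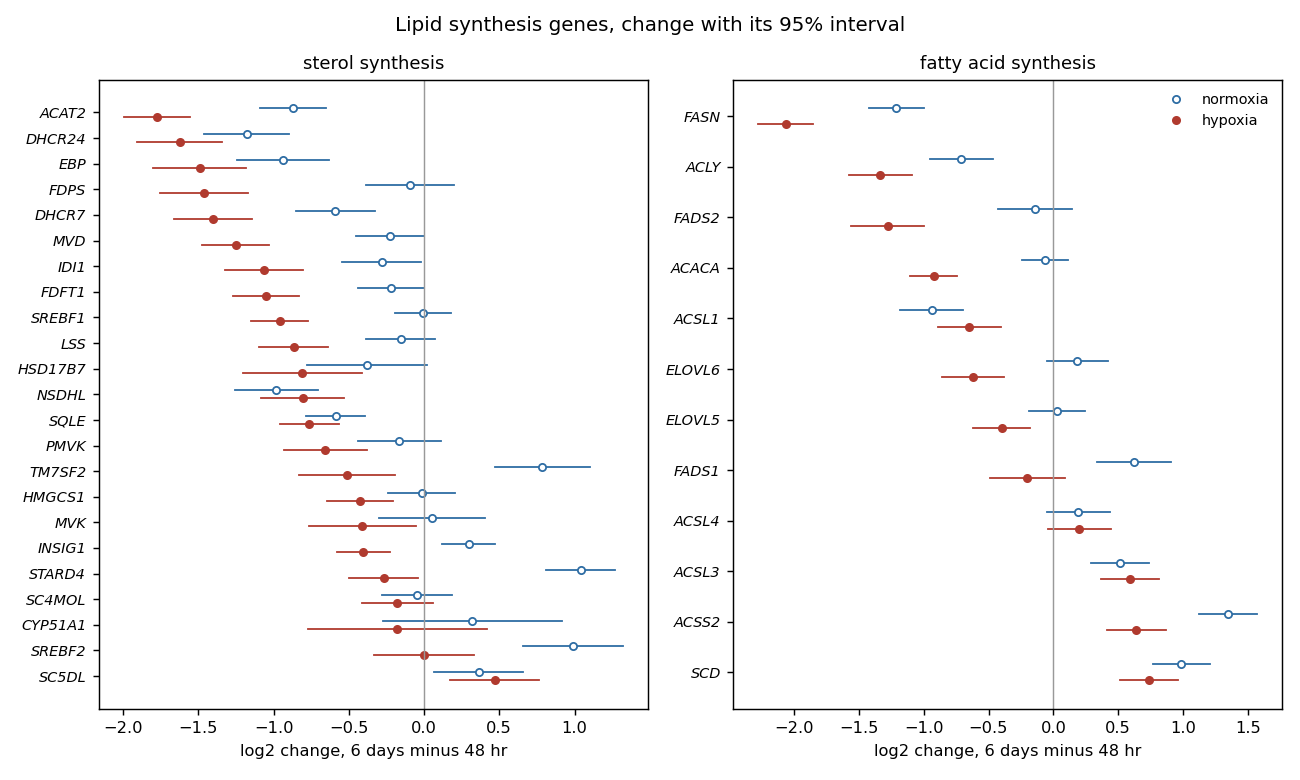
log2 change from 48 hr to 6 days (points) with its 95% interval (lines, from the fit over 12 libraries) for the tested sterol and fatty acid synthesis genes reported here, in hypoxia (filled) and normoxia (open). Most hypoxia points lie left of 0 and left of the normoxia point of the same gene, and SCD, ACSS2 and ACSL3 lie right of 0 in both.

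Respiration genes drifted down. Of 38 complex I genes 25 fell and 3 rose (1 without library 8 or 11), of 43 genes of complexes II to V 20 fell and 2 rose (1 without library 8 or 12), and of 24 genes of the TCA cycle and pyruvate dehydrogenase 14 fell and 1 rose (IDH2, from 13.9 and 12.7 to 26.3 and 23.9 RPKM). NDUFB7 of complex I went from 31.3 and 29.9 to 10.0 and 11.7 RPKM and ATP5G1, a ring subunit of ATP synthase, from 39.2 and 39.8 to 10.9 and 9.19 RPKM (3.81-fold lower). SDHA, a subunit of succinate dehydrogenase, went from 26.0 and 25.5 to 13.2 and 13.8 RPKM in hypoxia and from 24.8 and 22.3 to 18.9 and 18.0 RPKM in normoxia (difference -0.57, adjusted p = 0.0353). Antioxidant genes of the NRF2 list had 13 of 23 lower and 5 higher, the lower ones including TALDO1 at 1.99-fold. The 5 higher became 3 without library 7 or 11, 2 without library 12 and 1 without library 8.

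Iron handling held 1 of the 6 largest positive differences between oxygen levels outside the short RNA rows. TFRC, the transferrin receptor through which cells take up iron, went from 122 and 112 RPKM at 48 hr to 75.8 and 76.6 RPKM at 6 days in hypoxia (1.52-fold lower, adjusted p = 6.07e-04). In normoxia it went from 94.6 and 95.3 to 13.2 and 12.5 RPKM (7.17-fold lower). The fall was therefore smaller in hypoxia by 2.23 on the log2 scale (95% interval 1.89 to 2.58, adjusted p = 7.06e-05). SLC40A1, the iron exporter ferroportin, went from 0.649 and 0.793 to 2.73 and 2.47 RPKM, and STEAP3, an iron reductase, fell 2.60-fold. Of 14 tested iron genes 4 rose and 4 fell, and the higher count was 2 without library 8 or 11.

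Clock genes held several changes that were larger in hypoxia than in normoxia. Of 16 tested genes 8 rose and 3 fell (PER1, PER2 and PER3), against 30.4 and 32.4% of all genes. A higher change in hypoxia was called for 6 and a lower one for none, against 5.38 and 5.31% of all genes. RORA, an activating nuclear receptor of the clock and a HIF target, went from 0.221 and 0.196 to 1.67 and 1.68 RPKM in hypoxia and stayed under 0.1 RPKM in normoxia (difference 1.59, adjusted p = 0.00116). BHLHE41, a repressor that is also on the HIF list, went from 0.0834 and 0.127 to 1.15 and 1.22 RPKM (difference 1.42, adjusted p = 0.00196). NR1D2, another repressor, went from 2.05 and 1.92 to 7.80 and 6.95 RPKM (difference 0.88). C1orf51, an older name of the clock repressor CIART, went from 1.00 and 0.764 to 4.504 and 3.74 RPKM. RORA and BHLHE41 were low even at 6 days, so their fold changes are understated. In the hypoxia groups compared both reached 1 RPKM only at 6 days. They may have passed the filter through those libraries alone, so their calls among the 6 carry little weight.

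Notch genes were mixed. NOTCH3, a receptor, went from 1.24 and 1.25 to 3.62 and 3.61 RPKM (2.36-fold) and DLL4, a ligand of sprouting vessels, from 0.243 and 0.240 to 1.27 and 1.15 RPKM, while the ligand JAG2 and the feedback inhibitor NRARP fell 1.90 and 2.27-fold. Of 12 tested, 5 rose and 3 fell, against 30.4 and 32.4% of all genes. Immediate-early genes had 7 of 26 higher and 8 lower, close to the shares of all genes. KLF4, a factor of stem and barrier cells, went from 0.547 and 0.251 to 1.65 and 2.08 RPKM.

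Contractile genes that SRF and YAP drive were lower at 6 days. Of 19 tested 11 fell and 4 rose (AXL, CTGF and LATS2 among them, and 2 without library 12), with a median log2 change of -0.80. TAGLN, an actin-binding protein, went from 166 and 169 to 45.7 and 46.0 RPKM (3.63-fold lower, adjusted p = 1.02e-06), ACTA2, smooth muscle actin, from 21.8 and 22.1 to 5.45 and 5.33 RPKM and MYL9, myosin light chain, from 149.6 and 155 to 47.6 and 45.7 RPKM. TAGLN and ACTA2 are also fibroblast markers, and their falls carried that of the marker sum given above. The fibroblast-defining COL1A1 was under 0.8 RPKM and COL1A2 under 0.1 RPKM in all 4 libraries. The other detected markers were mixed. DCN went from 17.5 and 16.1 to 22.3 and 22.2 RPKM, and LUM stood at 15.2 and 13.4, then 16.8 and 13.9 RPKM. THY1 went from 7.96 and 8.23 to 5.19 and 4.61 RPKM and COL3A1 from 3.65 and 3.33 to 2.72 and 2.59 RPKM. The part of another cell type in these falls was not tested. Cytoskeletal reference genes fell too, ACTB from 1002 and 1012 to 311 and 345 RPKM and TUBB from 285 and 275 to 90.4 and 89.5 RPKM, with 5 of 13 reference genes lower and 1 higher (B2M), or 2 higher without library 11.

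Matrix genes were divided. Of 29 tested 10 rose, close to the share of all genes (30.4%), and 6 fell, below that of all genes (32.4%). COL6A1, a chain of microfibrillar collagen, went from 1.78 and 2.20 to 6.68 and 6.61 RPKM (2.88-fold). P4HA1, which hydroxylates collagen, went from 47.5 and 41.5 to 98.5 and 89.3 RPKM. CDH2, N-cadherin, went from 0.827 and 0.862 to 1.81 and 1.68 RPKM in hypoxia and stood at 1.02 and 0.990 RPKM at 48 hr and 0.737 and 0.809 RPKM at 6 days in normoxia (difference 0.98, adjusted p = 0.00601). CLDN7, of tight junctions, went from 1.99 and 1.69 to 4.71 and 4.23 RPKM. Of 13 tested epithelial and mesenchymal genes 5 rose (3 with any 1 hypoxia library left out) and 2 fell. The change was higher in hypoxia for 1 of the 13 and lower for none, against 5.38 and 5.31% of all genes.

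Antigen presentation and part of the interferon list rose. Of 14 MHC class I genes 10 rose and 4 fell, with HLA-B from 60.6 and 52.1 to 136 and 135 RPKM (2.40-fold) and HLA-E from 9.36 and 8.41 to 25.1 and 23.2 RPKM, and the peptide transporter TAP2 2.29-fold lower. HLA genes resemble one another, so reads may be split among them. Of 24 interferon-response genes 12 rose and 3 fell (OAS3, IFITM3 and ISG15), UBE2L6 by 2.54-fold and BST2 by 2.13-fold. Among the 8 with at least 5 RPKM in 2 libraries 2 rose and 2 fell. The 8 leukocyte markers summed to between 0.457 and 1.12 RPKM in the 4 libraries. In the BCL2 family 7 of 14 rose and 6 fell, against 30.4 and 32.4% of all genes. The death promoters HRK and BMF went from 0 and 0.203 to 1.25 and 1.48 RPKM and from 0.166 and 0.198 to 1.32 and 1.53 RPKM, and BAX, which opens the mitochondrial membrane, fell 1.997-fold.

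Histone rows of the replication-dependent kind had 28 of 63 lower and 7 higher in hypoxia, and 9 lower and 27 higher in normoxia. Without library 8 the lower count in hypoxia was 18, and after rescaling the higher count was 13. The change was lower in hypoxia for 19 of them and higher for 1 (HIST1H4D), against 5.31 and 5.38% of all genes. Quantile normalization gave 31 lower. HIST1H4I stood at 7.03 and 6.20 RPKM at 48 hr and 6.51 and 3.76 RPKM at 6 days in hypoxia, and went from 6.58 and 6.04 to 17.8 and 15.2 RPKM in normoxia (difference -1.69, adjusted p = 0.00671). Its change in hypoxia was not called (adjusted p = 0.126), and it was when library 11 was left out (0.00475). Histone genes are near-identical copies, so single rows are uncertain. Normoxia and hypoxia medians were 0.34 and -0.36.

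Small RNAs split by family. All 27 tested SNAR rows, primate-specific RNAs of RNA polymerase III, fell, with a median log2 change of -2.61, from 144 and 143 to 20.3 and 18.0 RPKM for SNAR-G2, and also fell in normoxia with a median of -3.11. SNAR rows are near-identical copies and count as 1 observation at most. Of 213 C/D-box snoRNAs, which guide methylation of ribosomal RNA, 115 rose and 2 fell (1 without library 7, 11 or 12), and of 123 H/ACA-box snoRNAs and scaRNAs, which guide pseudouridylation, 68 rose and none fell. The count of 68 became 43 without library 8 or library 11. In normoxia the same lists had 57 higher and 4 lower, and 16 higher and 2 lower. Medians in hypoxia were 0.80 and 0.65. The change was called higher in hypoxia than in normoxia for 5 of the 213 and 9 of the 123 rows, against 5.38% of all genes tested. With the spread taken from the 8 libraries compared it was called for 29 and 18, against 1198 of all 11933 genes. The median difference was 0.68 and 0.55, and 0.33 and 0.16 after quantile normalization. SNORD115-32 went from 1.40 and 3.45 to 37.1 and 43.6 RPKM, and as 1 of many copies it is uncertain, while SNORD86 went from 299 and 375 to 50.5 and 37.7 RPKM (7.60-fold lower). The share of short RNA rows in summed RPKM was higher at 6 days in both libraries, as given above, and its part in these rises was not tested. RPKM divides by length, so few reads give these short rows high values, and how reads of this length were counted over them is not given in the sources used here. MIR130A, a miRNA gene row, went from 0.966 and 0.636 to 6.77 and 5.81 RPKM.

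Among long non-coding RNAs 7 of 13 rose and 2 fell. MALAT1, a nuclear RNA, went from 152 and 168 to 394 and 469.5 RPKM, and the snoRNA hosts GAS5 and SNHG1 from 50.2 and 46.6 to 125 and 101 RPKM and from 39.5 and 33.8 to 93.1 and 72.5 RPKM. SNHG12, another snoRNA host, fell 2.23-fold and SNHG3 had a log2 change of -0.56. H19, an imprinted RNA, stood at 14.2 and 12.4 RPKM at 48 hr and 12.5 and 13.3 RPKM at 6 days (log2 -0.04, 95% interval -0.32 to 0.24), with overlapping groups.

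Much of what happened between 48 hr and 6 days in hypoxia also happened in normoxia. In normoxia 3227 genes rose (27%) and 3865 fell (32.4%), 59.4% in either direction. Genes higher in both comparisons numbered 2419, which is 66.6% of those higher in hypoxia and 75.0% of those higher in normoxia, and genes lower in both numbered 2963 (76.6 and 76.7%). The test of the difference itself called 1276 genes, 642 with a higher and 634 with a lower change in hypoxia. Leaving out any 1 of the 8 libraries lowered that count to between 365 (library 8) and 630 (library 11), and estimating the spread from these 8 libraries alone raised it to 2384. Genes called in opposite directions numbered 110, all with a called difference, which opposite calls from the same fit nearly ensure. FOXO genes had medians of 1.35 in hypoxia and 1.30 in normoxia, ribosome biogenesis -1.01 and -1.06, and heat-shock genes -0.99 and -1.05.

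**Figure D5:**
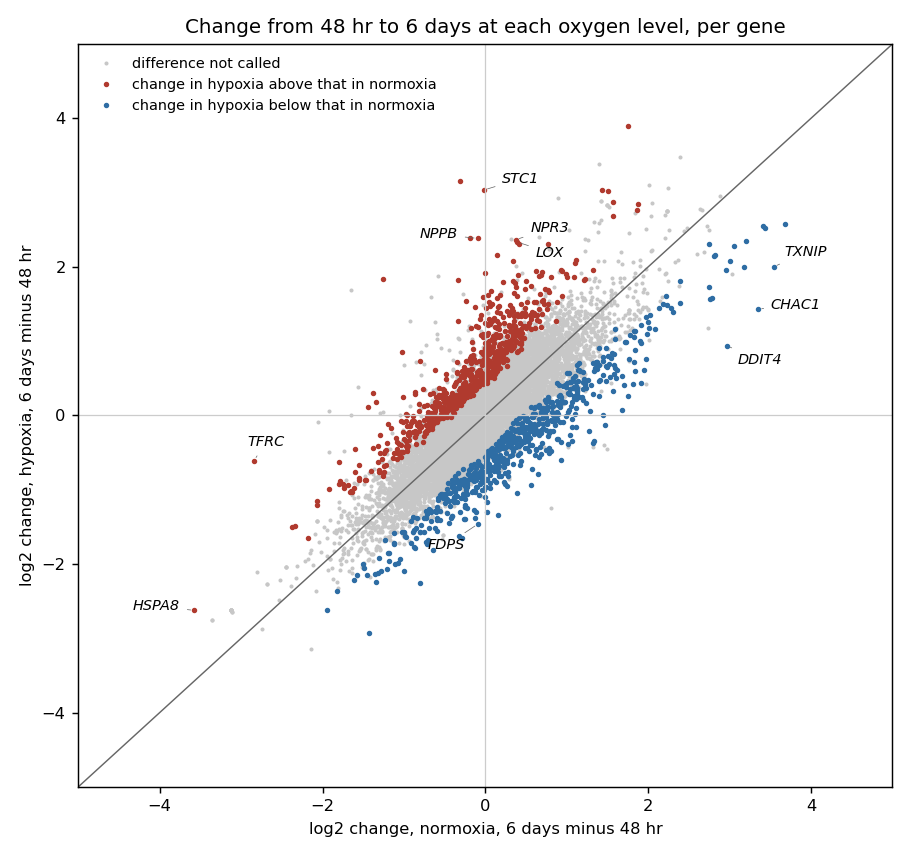
log2 change from 48 hr to 6 days of each of 11933 genes in normoxia (horizontal) and hypoxia (vertical), with the line of equal change and the genes whose difference was called in red (642) and blue (634). Most genes lie along the line, STC1 and NPPB lie above 0 in hypoxia alone, and TXNIP, CHAC1 and DDIT4 rose more in normoxia.

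The HIF list leaned to hypoxia and the ATF4 list to normoxia. Of 49 HIF targets 17 had a higher change in hypoxia and 3 a lower one (BNIP3L, STC2 and DDIT4), against 5.38 and 5.31% of all genes. Within the HIF list the difference was 1.94 for LOX and 1.89 for NDRG1. Outside the list it was 3.05 for STC1 (95% interval 2.68 to 3.42, adjusted p = 1.65e-05) and 2.48 for NPPB. All 4 genes were under 0.6 RPKM in both normoxia groups. Of 36 ATF4 genes none had a higher change in hypoxia and 16 had a lower one. CHAC1 is an example whose 48-hr level was already above normoxia. CHAC1 was at 1.65 and 1.95 RPKM at 6 hr, 8.91 and 7.21 RPKM at 48 hr and 21.7 and 23.2 RPKM at 6 days in hypoxia, and at 2.09 and 1.69 RPKM at 48 hr and 21.9 and 25.8 RPKM at 6 days in normoxia (difference -1.92, adjusted p = 5.75e-04). DDIT4, on both lists, went from 19.4 and 18.4 to 149 and 152 RPKM in normoxia (difference -2.03, adjusted p = 2.84e-04). TXNIP, which is on the FOXO list and on neither of these, went from 4.79 and 4.91 to 60.4 and 63.3 RPKM in normoxia (difference -1.54). The 6-day levels of CHAC1 in both conditions were close, and those of DDIT4 and TXNIP were higher in hypoxia than in normoxia in both libraries. ARHGAP4, a GTPase-activating protein, fell in hypoxia (5.36 and 6.17 to 3.79 and 3.45 RPKM) and rose in normoxia (3.36 and 2.65 to 5.82 and 6.52 RPKM).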

How the data were processed

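Per the labels, ribosomal RNA was depleted from 3 ug of total RNA, and barcoded libraries were read for 75 bases on a Life Technologies 5500xl sequencer. The authors deposited RPKM per gene symbol, 1 column per library. Per the submitters' processing notes Partek 6.6 and genome build hg19 were used. The aligner, transcript models and the reads in the RPKM denominator were not given in the sources used here. Reads per library were inferred from steps of the precursor values, within 0.05 reads of whole numbers for at least 97.2% of values in the 4 hypoxia libraries. RPKM are not counts, and a count model was not fitted.

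The test was limma 3.58.1 (R 4.3.3) with 6 group means over 12 libraries on log2(RPKM + 0.5), an intensity trend, two-sided, with 6 residual degrees of freedom and 5.08 from the prior, adjusted over all 11933 genes in each of 3 comparisons. It was run on simulated data in which few genes changed and noise was independent between genes. Many more genes were called here, so that run does not speak to the calls in these data. The libraries and 56 gene lists were chosen with earlier results of these data known. Lists overlap. Named were the 15 highest and 15 lowest changes with at least 2 RPKM and no overlap (snoRNA, scaRNA, small nuclear RNA, miRNA and SNAR rows apart, also for the differences), up to 4 genes per list, the 6 highest and 6 lowest differences, 21 index genes and the extremes of each short RNA class. Exceptions within a list, and SREBF1, SREBF2, DCN, LUM, THY1, COL3A1 and SNHG3, were named after their values were seen. Some genes that this rule names are not reported here. Promoters came from RefSeq (GRCh38.p14), whose build differs from that of the files, so gene coordinates are not given. The 9 alternatives were pseudocounts of 0.1 and 1, no filter, at least 5 RPKM, quantile normalization, trimmed-mean centring, rescaling, the contrast's own libraries and no trend, and each library was left out in turn.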

Additional observations from a re-analysis of the deposited data

Results flagged for a closer look

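The change from 48 hr to 6 days differed between hypoxia and normoxia for 1276 genes by the test of the difference. The named genes with a higher change in hypoxia were STC1 (3.05 on the log2 scale), NPPB (2.48), TFRC (2.23), NPR3 (1.99), LOX (1.94) and NDRG1 (1.89). Those with a lower change were DDIT4 (-2.03), CHAC1 (-1.92), HIST1H4I (-1.69), TXNIP (-1.54) and ARHGAP4 (-1.54). Each of these differences stayed past the threshold in each of the 16 or 17 alternatives that tested them. The weakest adjusted p among those was 0.0297 for HIST1H4I without library 7.

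The precursor miRNA table, which no comparison above used, showed 61 of 166 precursors with both hypoxia 6-day libraries above all 6 normoxia libraries. The 166 had at least 1 RPKM in at least 2 libraries, so a precursor could enter through the hypoxia 6-day libraries alone. No count of precursors below all normoxia libraries is given beside it, so the 61 has no comparator. The difference was not tested here.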

How the results depend on the processing

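No paired analysis was possible because the groups compared carry different library numbers (7 and 8 against 11 and 12), so no replicate block could be fitted. Of 242 named genes 220 kept their direction and side of the threshold under all alternatives tested. Most were named for a large change past the threshold, and 236 were called, so this share does not describe all genes. The total called in hypoxia was 6096 to 6377 with 1 library left out. At a minimum of 5 RPKM, with fewer genes tested, 2022 genes rose in hypoxia, 1739 rose in normoxia and 414 had a higher change in hypoxia. The difference was called for 2479 genes (1196 higher, 1283 lower) after quantile normalization and for 2384 (1198 higher, 1186 lower) with the contrast's own libraries, and 1043 were lower after trimmed-mean centring. Without 1 library each it was 365 to 630 (160 to 303 higher, 205 to 346 lower). SLC2A1 turned to 0.049 after quantile normalization and 0.013 after rescaling. H19 turned to 0.14 and 0.12 under the same settings, and ranged from -0.13 to 0.054 with 1 library left out. The cause was not tested. In normoxia the rescaling moved the higher share of calls from 45.5 to 58.4%. Each hypoxia library held 25.2 M reads or more, and a change that was not called may lie below what this depth and 2 libraries per group can show.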
